A study of Homo sapiens with 4 samples.

Results

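The core spliceosome genes were followed at the transcript level in H1299, an established line of human lung carcinoma cells, after exposure to mercury chloride. The 44 genes were chosen by symbol among 19926 protein-coding genes listed: the SF3A and SF3B genes, SF1, U2AF1, U2AF2, and every SNRP, SNRNP and PRPF gene with a matching symbol. Their symbols also occur in 66 processed pseudogenes and 5 long non-coding RNA genes, which were left out. The treated cells received 5 μM HgCl2 for 48 h and the control cells 0.6% EtOH, the solvent, for the same time. The treatment field of the labels names 5 μM HgCl2 in all 4 samples. By the methods the controls had solvent alone, which is the reading used here. All cells are of 1 line.

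Each group has 2 columns of deposited counts, labelled as replicates 1 and 2. Among member transcripts the variance of the difference between columns was 0.545 times that of counting noise for EtOH (45 transcripts) and 0.593 times for HgCl2 (43 transcripts), against 20.9 between EtOH replicate 1 and HgCl2 replicate 1. The 2 columns of a group were thus closer than sampling noise allows between independent samples, and their mean was used as 1 sample. Every comparison below is 1 sample against 1 sample, with no test and no p-value across the conditions. Overlap of columns between the groups, or its absence, is thus no measure of replicate spread. Column totals ran from 4720978 to 5053120 counts, of which the member genes held 0.263% in EtOH and 0.312% in HgCl2.

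The line was checked on markers by summed counts per gene. VIM, the mesenchymal filament of this line, had 620, 628, 501 and 511 counts (EtOH 1 and 2, then HgCl2 1 and 2). KRT18 had 18 to 31, whereas KRT8 had 53 and 58 in EtOH and 4 and 4 in HgCl2. EPCAM, KRT19, SFTPA1, SFTPB and SFTPC were at 0 in all columns, as were PTPRC, CD3E and ALB of other cell types. Counts of 0 are values of these tables and are not read as the level of the gene. COL1A1 had 13 and 18 counts in EtOH and 3 and 4 in HgCl2, and PECAM1 had 5 and 4, then 1 and 2. The part of these differences in the results below was not tested.

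The spliceosome removes introns from pre-mRNA. SF1 and the U2AF pair mark the branch point, the polypyrimidine tract and the AG at the end of the intron, after which the U2 snRNP, carrying the SF3A and SF3B complexes, takes hold of the branch point. The U1 snRNP reads the GT at the start of the intron, and the U4/U6.U5 tri-snRNP, with PRPF8 at its centre, brings the catalytic site. Each snRNP other than U6 is built on a ring of Sm proteins, the SNRPB, SNRPD, SNRPE, SNRPF and SNRPG products.

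The tables list 401 transcripts of the 44 genes. Of these, 138 had a count in some column and 74, from 36 genes, passed the filter of a mean FPKM (read pairs scaled to transcript length and library size) above 1 in at least one group. Of the 74, 50 did so in each of the groups, 17 only through EtOH and 7 only through HgCl2. A log2 ratio is here the log2 of the mean HgCl2 count over the mean EtOH count, each per TMM effective library size, with an exact (Clopper-Pearson) 95% interval. Reads carried no molecular identifiers, so the intervals cover counting error only. A transcript was called when the 2 groups were at least 2-fold apart and the interval did not cover 0. Where a group had 3 counts or fewer it was set to 3 counts, and the fold is a bound.

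HgCl2-treated cells showed 10 member transcripts called higher (13.5% of 74) and 8 called lower (10.8%). Over all 17547 transcripts past the filter 15.5% were called higher and 16.4% lower. The shares of the members rest on few transcripts, and whether they differ from those of the series was not tested. Those calls lie in 13 genes, 7 with a higher transcript and 8 with a lower one, and PRPF8 and SNRNP40 had both. Of the calls, 4 higher ones passed the filter only through HgCl2 (both SF3A3 transcripts, PRPF18 ENST00000598625 and PRPF8 ENST00000576407) and 4 lower ones only through EtOH (SNRPD2, SNRNP200, PRPF8 ENST00000572723 and SNRNP40 ENST00000489853), so these had to differ. Most calls rest on few reads: 7 of the 10 higher and all 8 lower transcripts had a mean under 30 counts over the 4 columns. Among the 31 better counted members 3 were called higher and 0 lower, beside 15.6% higher and 9.55% lower over the 7107 such transcripts of the series. The number called lower was 13 with EtOH replicate 2 left out, a setting for which no share of the series is given.

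By annotated class, 3 of 21 retained-intron members were called higher and 3 lower, beside 20.6% and 15.3% of all 3993 retained introns past the filter. Without EtOH replicate 2, 5 of the retained-intron members were called lower, again with no share of the series for that setting. Of 31 protein-coding transcripts 2 were called higher and 3 lower, with 12.1% and 15.0% as the series' shares. Of 20 transcripts of coding genes with no defined coding sequence 5 were called higher and 2 lower, beside 18.0% and 14.2%. The median log2 ratio of the 74 members was −0.16, against −0.11 over all transcripts past the filter. Among the better counted ones it was 0.079 for members and 0.21 for the series, and other scalings moved the latter by −0.20 to 0.18. Log2 ratios of the leading transcripts are therefore also read against 0.21.

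**Figure D1:**
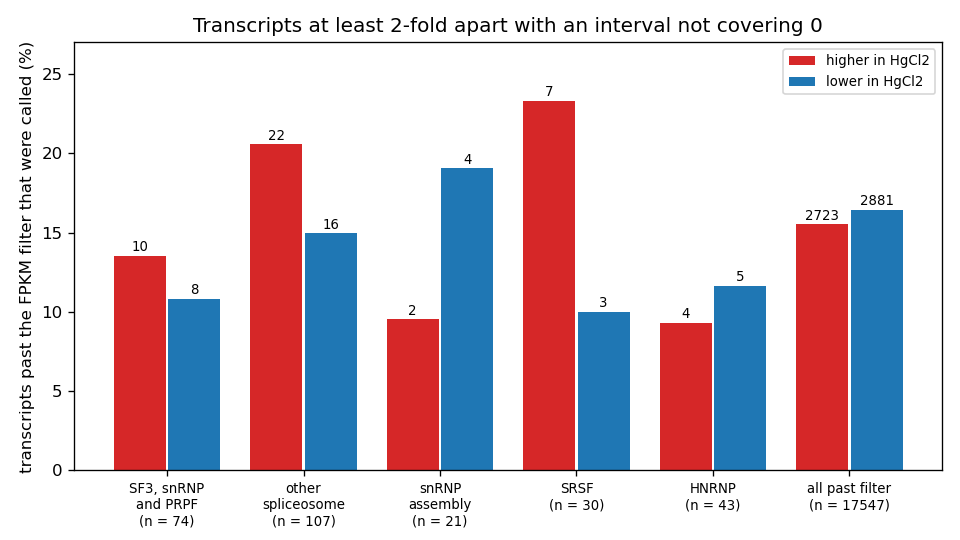
Share of transcripts past the FPKM filter (vertical axis, percent) called higher (red) or lower (blue) in HgCl2, for the member genes, 4 other gene lists of RNA processing and all transcripts. Numbers above the bars are the transcripts called and n is the number past the filter. The members are at 13.5% and 10.8%, beside the series' 15.5% and 16.4%, and the difference was not tested.

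Other splicing genes were set beside the members. Of 107 transcripts of 38 further spliceosome genes 22 were called higher and 16 lower, with a median of −0.037. BCAS2, a subunit of the PRPF19 complex, rose from a mean of 306.5 to 598 counts (log2 ratio 1.11). ZRSR2, which reads the 3′ splice site of minor introns, fell from 150.5 to 62.5 (−1.12). Both were picked from the called transcripts with their values known. With the adjustment for GC content described below, BCAS2 was at 0.75, short of 2-fold, and ZRSR2 at −1.20. The snRNP assembly genes had 2 higher and 4 lower of 21, the SRSF genes 7 and 3 of 30, and the HNRNP genes 4 and 5 of 43. Whether these lists differ from the members was not tested.

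Many of the called transcripts have bases of their own, covered by no other listed transcript, inside an intron. Of the 18 called transcripts, 15 run into an intron that a protein-coding transcript of the same gene removes: 7 of the 10 higher and 8 of the 8 lower, beside 25 of the 56 not called. Over all transcripts of protein-coding genes past the filter the shares were 59.0% of 2006 called higher, 51.8% of 1897 called lower and 46.6% of 8607 not called, so running into an intron was common throughout the series. All 15 introns begin with GT and end with AG. By the annotation, the called transcript reads through the start of the intron in 6 cases and through its end in 12, with 3 doing both. Below are the sites that the called transcripts read through, from the GRCh38 genome in the direction of the gene, for the transcripts with the most counts and for SNRNP200 and PRPF8. A 5′ site is the last 3 exon and first 6 intron bases with GT in capitals, and a 3′ site is the last 20 intron and first 3 exon bases with AG in capitals.
SF1 3′ site: cgggagtctgtttcccacAGgtc
U2AF1 3′ site: gctctcattttcccttacAGagt
SF3B1 3′ site: ttttttcccttccgttgtAGaga
SF3B6 5′ site: agtGTgagt
PRPF4B 5′ site: tcaGTaagt
PRPF4B 3′ site: aactttgattttgttttcAGtta
SNRNP40 3′ site: tatttggatttgttttgcAGttc
SNRNP200 5′ site: cagGTaagt
SNRNP200 3′ site: ctctcccctctactgctcAGggg
PRPF8 3′ site, intron of the transcript called lower: cctgacccctttgtctccAGatt
PRPF8 3′ site, intron of the transcript called higher: ttgggacactctacttccAGgtc

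The introns are chr11:64770409-64773429 for SF1, chr21:43104403-43107450 for U2AF1, chr2:197393189-197396055 for SF3B1 and chr2:24068460-24074075 for SF3B6, all on the minus strand. That of PRPF4B is chr6:4056436-4057035 on the plus strand. On the minus strand again are chr1:31269241-31271378 for SNRNP40, chr2:96281923-96283200 for SNRNP200, and chr17:1651789-1653541 and chr17:1677173-1677564 for PRPF8. The 18 bases before the AG hold 16 pyrimidines at the SF3B1 and SNRNP200 sites, whose transcripts were called in opposite directions. Over the 15 introns the pyrimidines numbered 11 to 16, and 12 to 16 for transcripts called higher against 11 to 16 for those called lower. The ranges overlap. Of the introns, 11 are longer than 1000 bases.

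The leading transcript of a gene is the one with the most counts. It was compared for the 24 genes where its mean reached 30 counts in a group, and 17 of these are protein-coding, 4 retained introns, 2 without a defined coding sequence and 1 a nonsense-mediated decay transcript. Their log2 ratios had a median of 0.12. Over all 33 leading transcripts past the filter, those with fewer counts included, the median was −0.13, and it ran from −0.205 to 0.016 with 1 column left out. Counting intervals lay above 0 for 10, below 0 for 5 and covered it for 9. Relative to the series' 0.21, 6 lay above, 7 below and 11 covered it. The intervals of SF3B3, PRPF38B, PRPF39 and SNRNP48 lay above 0 but covered 0.21, while those of U2AF1 and SNRPF covered 0 but lay below 0.21. Of the 33, 2 were called higher (SF3B1 and PRPF18) and 3 lower (SNRPG, SNRPD2 and SNRNP200), the latter outside the 24.

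**Figure D2:**
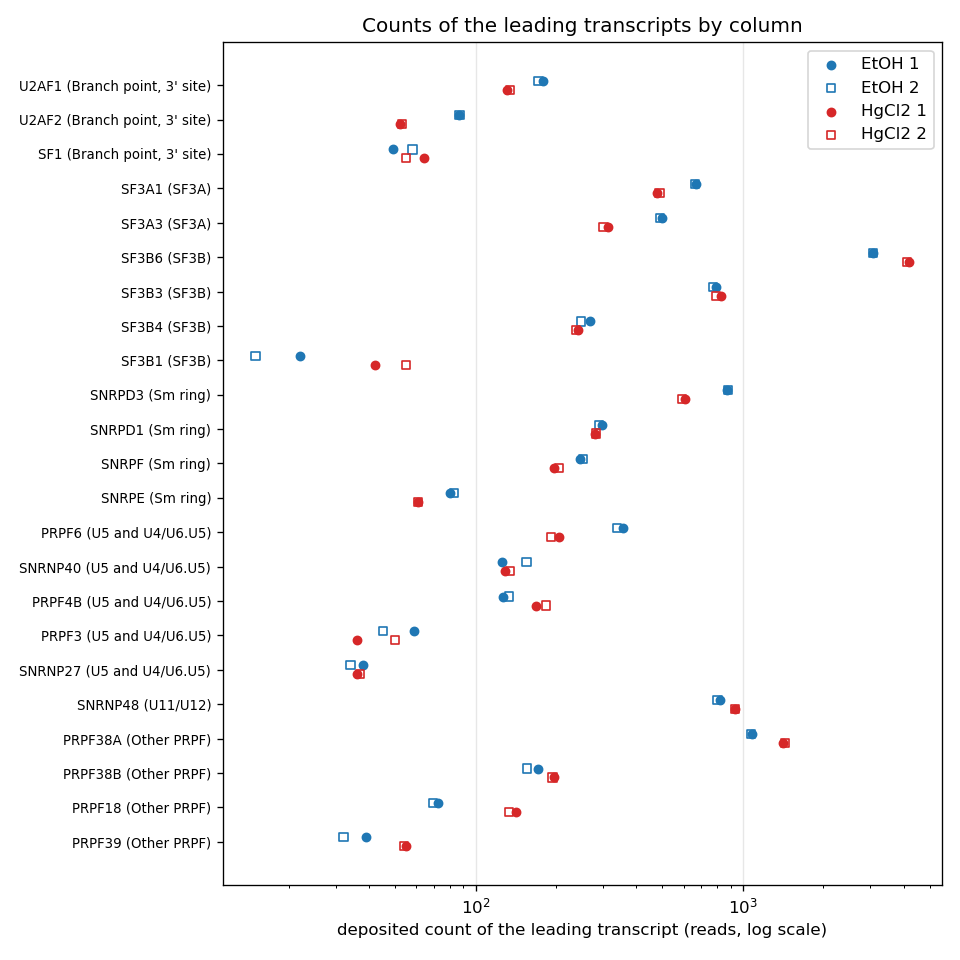
Deposited counts (horizontal axis, reads, log scale) of 23 leading transcripts in EtOH 1 and 2 (blue) and HgCl2 1 and 2 (red), by role in the spliceosome. Columns of a group lie close together. SF3B6 has the most counts of those drawn, with the red points to the right of the blue ones, and SF3A1, SF3A3, SNRPD3 and PRPF6 have them to the left.

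The branch point and 3′ site factors had leading log2 ratios from −0.59 to 0.30 and 2 further transcripts called lower. U2AF2, which binds the polypyrimidine tract, had 87 and 87 counts in EtOH and 52 and 53 in HgCl2 (ENST00000450554, log2 ratio −0.59, interval −1.11 to −0.075). Only 8 bases of this transcript are its own in the annotation used here, so reads may have been divided with others. For U2AF1, which reads the AG, the retained-intron transcript ENST00000475639 had 178, 172, 131 and 134 counts (−0.26, −0.59 to 0.076). The coding transcript ENST00000459639, which reads through the 3′ site printed above, fell from 36 and 36 to 14 and 14 (−1.22, −2.22 to −0.29). The U2AF1 coding transcripts ENST00000291552 and ENST00000380276 have 0 bases of their own and had 0 counts. SF1, the branch point binding protein, was represented by retained introns: ENST00000482693 had 49, 58, 64 and 55 counts (0.30, −0.26 to 0.86), with overlapping groups. ENST00000486960 fell from 42 and 44 to 12 and 20 counts (−1.28, −2.21 to −0.43). ENST00000496969, without a defined coding sequence and not called, had 37, 28, 15 and 16 counts (−0.92, −1.90 to −0.011). Of these SF1 transcripts only ENST00000482693 had a value above 0, and its interval covers 0. SF1 as a whole had 129 counts in EtOH and 92.5 in HgCl2.

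In the SF3A complex, which bridges SF3B to the rest of the U2 snRNP, both measured subunits had leading transcripts below 0 without reaching 2-fold. SF3A1 had 670 and 664 counts in EtOH and 478 and 488 in HgCl2 (−0.32, −0.49 to −0.15). SF3A3 had 498, 490, 312 and 301 (ENST00000373019, −0.55, −0.76 to −0.34). Both log2 ratios were negative on all 6 scalings. At the same locus, 2 SF3A3 transcripts without a defined coding sequence rose in HgCl2: ENST00000460925 had 1, 2, 21 and 18 counts, at least 7.18-fold higher, and ENST00000470585 had 0, 0, 21 and 28, at least 9.02-fold higher. Both run into short introns of the coding transcript. ENST00000460925 includes all of an intron of 160 bases, and ENST00000470585 enters an intron of 409 bases through its 5′ site. SF3A2 was near 0, with 1 count in HgCl2 replicate 2.

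Of 13 SF3B transcripts past the filter 2 were called higher and 0 lower, beside 15.5% and 16.4% over the series. SF3B6, the subunit that sits at the branch point adenosine, had the highest level per length of the 24 genes, an FPKM of 857 in EtOH and 1454 in HgCl2. Its coding transcript ENST00000233468 had 3062, 3067, 4201 and 4124 counts (log2 ratio 0.59, interval 0.52 to 0.65), short of 2-fold. The retained-intron transcript ENST00000478050 of SF3B6, which reads through the 5′ site above, rose from 7 and 7 to 26 and 35 counts (2.27, 1.05 to 3.70). SF3B1, the scaffold of the complex and a gene often mutated in cancers, was led by the retained intron ENST00000479532 with 22, 15, 42 and 55 counts (1.53, 0.73 to 2.39). This transcript is among the 24 only through its counts in HgCl2. SF3B1 as a whole had 34 counts in EtOH and 64 in HgCl2, and none of its protein-coding transcripts had more than 5 counts in a column. Its coding transcript ENST00000335508 has 0 bases of its own in the annotation used here and had 0 counts. These sums are therefore not read as the level of the gene.

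Neither SF3B3 nor SF3B4 came near 2-fold. SF3B3, a large scaffold subunit, had 793, 774, 831 and 792 counts (0.19, 0.051 to 0.34), and SF3B4, an RNA-binding subunit, had 268, 248, 241 and 237 (0.033, −0.23 to 0.29). Both log2 ratios changed sign among the scalings, from −0.0073 to 0.37 for SF3B3 and from −0.17 to 0.21 for SF3B4. SF3B2 had 29 counts in EtOH and 13.5 in HgCl2 over all its transcripts. SF3B5, a gene of 1 exon whose 690 bases are all its own, had 6, 2, 1 and 0 counts.

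The 4 Sm ring genes among the 24 had leading log2 ratios between −0.40 and 0.081 and none of these was called. SNRPD3 had 873 and 878 counts in EtOH and 608 and 591 in HgCl2 (−0.40, −0.56 to −0.25), with a negative value on all 6 scalings. SNRPD1 had 296, 290, 279 and 282 counts (0.081, −0.16 to 0.32, between −0.12 and 0.26 among the scalings). The proteins of SNRPD1 and SNRPD3 enter the ring with different partners, and the intervals of the pair do not overlap. SNRPE had 80, 83, 61 and 61 counts (−0.27, −0.78 to 0.22). SNRPF had 245, 253, 196 and 205 (−0.17, −0.44 to 0.11, between −0.37 and 0.0088 among the scalings) on a transcript with only 12 bases of its own. Low counted transcripts of 2 further ring genes fell: SNRPG ENST00000482975 had 22, 18, 5 and 6 counts (−1.72), and SNRPD2 ENST00000588599 had 9, 9, 0 and 0, at least 2.72-fold lower. SNRPE and SNRPG have processed copies elsewhere in the genome, with which reads may be shared.

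**Figure D3:**
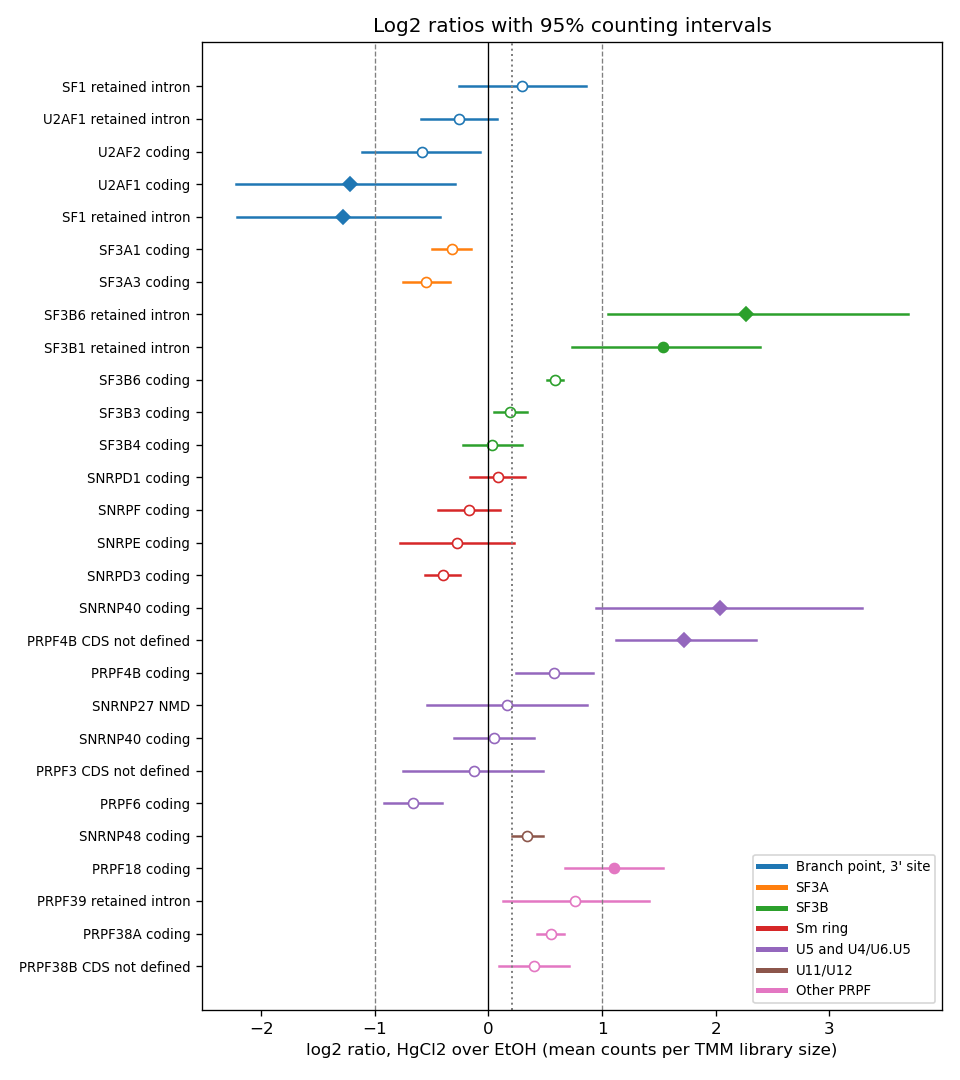
Log2 ratio of HgCl2 over EtOH (horizontal axis) with 95% counting intervals for 28 transcripts named by value, coloured by role. Circles are leading transcripts and diamonds other transcripts of the gene, filled where called. Dashed lines mark 2-fold and the dotted line the median of 0.21 over well counted transcripts. The calls lower are the U2AF1 coding and SF1 retained-intron transcripts, and those higher belong to SF3B6, SF3B1, SNRNP40, PRPF4B and PRPF18.

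The U5 and tri-snRNP genes held calls in both directions, 3 higher and 4 lower of 16 transcripts, beside 15.5% and 16.4% over the series. PRPF6, which bridges U5 to U4/U6, is listed with 1 transcript, all of it its own sequence, and had 356 and 339 counts in EtOH and 206 and 192 in HgCl2 (log2 ratio −0.66, interval −0.92 to −0.41). This was the lowest value among the 24. PRPF4B, the kinase of the tri-snRNP, lay on the other side: its coding transcript ENST00000337659 had 127, 133, 168 and 184 counts (0.58, 0.25 to 0.92). Its transcript ENST00000466185, which includes all of a 600-base intron with both sites printed above, rose from 37 and 26 to 100 and 88 counts (1.72, 1.12 to 2.35). That is a larger difference than the coding transcript showed, and the 2 intervals do not overlap.

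SNRNP40, a WD repeat protein of U5, was led by ENST00000263694 with 126, 155, 129 and 134 counts (0.048, −0.31 to 0.40, between −0.15 and 0.23 among the scalings). Groups overlap for this transcript. Yet the shorter coding transcript ENST00000373720, which starts inside the intron whose 3′ site is printed, rose from 8 and 10 to 32 and 35 counts (2.04, 0.95 to 3.29). ENST00000489853 of the same gene had 11, 11, 2 and 2, at least 3.32-fold lower. Over all its transcripts SNRNP40 had 169.5 counts in EtOH and 179.5 in HgCl2, so the calls of both signs stand beside a nearly equal gene total.

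PRPF8, the scaffold of the catalytic centre, had few counts, 22 in EtOH and 10 in HgCl2, spread over retained introns. ENST00000576407 had 0, 0, 8 and 6, at least 2.58-fold higher, and ENST00000572723 had 9, 10, 0 and 0, at least 2.87-fold lower. They read through the 3′ ends of different introns, both shown above. SNRNP200, the helicase that unwinds U4 from U6, fell in its retained-intron transcript ENST00000480242, with 26, 30, 7 and 8 counts (−1.76, −3.15 to −0.56). It has 1175 bases of its own in the intron whose sites are printed above.

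Of the U4/U6 proteins, PRPF3 had 59, 45, 36 and 50 counts on its leading transcript (ENST00000476970, −0.13, −0.75 to 0.48, between −0.33 and 0.047 among the scalings), with overlapping groups. A second PRPF3 transcript, ENST00000470824, fell from 22 and 20 to 8 and 7 counts (−1.34). PRPF4, its partner, had 26, 23, 28 and 29 counts, and PRPF31 was at 0 in all columns. SNRNP27 was led by a nonsense-mediated decay transcript with 38, 34, 36 and 37 counts (0.16, −0.54 to 0.87, between −0.038 and 0.34 among the scalings).

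Of the 7 PRPF genes outside the tri-snRNP, the 5 with a leading transcript of at least 30 counts in a group had it above 0, with intervals that did not cover 0, and those of PRPF38B and PRPF39 covered 0.21. The other two, PRPF19 and PRPF40B, had fewer counts in HgCl2. PRPF18, which acts in the second catalytic step, was called higher: ENST00000378572 had 72, 69, 141 and 133 counts (1.10, 0.68 to 1.54). It stayed above 0 on all 6 scalings, at 0.90 to 1.28, so the lowest of them is short of 2-fold. Transcripts of PRPF18 without a defined coding sequence rose as well, ENST00000616861 from 5 and 5 to 26 and 18 counts (2.28) and ENST00000598625 from 2 and 4 to 28 and 25, at least 9.76-fold higher. These called transcripts did not run into an intron of a coding one.

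PRPF38A, which joins with the tri-snRNP before activation, had 1087, 1070, 1417 and 1437 counts (0.55, 0.43 to 0.66), and its relative PRPF38B had 171, 156, 197 and 194 (ENST00000485810, 0.40, 0.094 to 0.71). Both log2 ratios were above 0 by less than 2-fold. PRPF39, a U1-associated protein, was led by a retained intron with 39, 32, 55 and 54 counts (0.76, 0.13 to 1.41). For PRPF38B the sum over its transcripts was 283.5 counts in EtOH and 276.5 in HgCl2, unlike its leading transcript. PRPF19, a ubiquitin ligase, was led by ENST00000227524 with 13, 10, 3 and 2 counts, at least 3.47-fold lower in HgCl2 but not past the FPKM filter. PRPF40B was led by ENST00000552301 with 4, 9, 1 and 1 counts, at least 1.96-fold lower and not called.

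Among the proteins of the minor spliceosome, SNRNP48 had 824, 804, 933 and 937 counts (0.34, 0.21 to 0.48). Its interval covers the series' median of 0.21. SNRNP25 had 2.5 counts in EtOH and 0 in HgCl2, and SNRNP35 had 8.5 and 6.5.

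U1 and U2 particle genes gave almost no reads. SNRNP70, SNRPA and SNRPC, the 3 proteins particular to U1, summed to 30.5 counts in EtOH and 7 in HgCl2, of which SNRNP70 had 20 and 4.5. SNRPA1 and SNRPB2 of U2 summed to 11 and 8. Only 2 transcripts of the U1 genes and 1 of the U2 genes passed the filter, and none was called. SNRPB had 4 and 0.5 counts, and SNRPN, its neuronal relative, was at 0.

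The log2 ratios moved with base composition. Across the 24 leading transcripts Spearman's rho between GC content and log2 ratio was −0.70 and Pearson's r −0.61, as a description of transcripts that share libraries. Over the 23 with at least 30 counts in both groups, without SF3B1, they were −0.69 and −0.64. Over all 7064 well counted transcripts with a known sequence rho was −0.23 and r was −0.21, with bin medians from 0.47 at up to 35% GC to −0.25 above 60%. SF3B1, PRPF18, PRPF39, PRPF4B and SF3B6, at 37.0% to 39.8% GC, were among the leading transcripts with the highest log2 ratios. SNRPE, in the same bin of 35% to 40% GC, went the other way at −0.27. PRPF6 and U2AF2, at 57.0% and 61.1%, were the lowest.

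**Figure D4:**
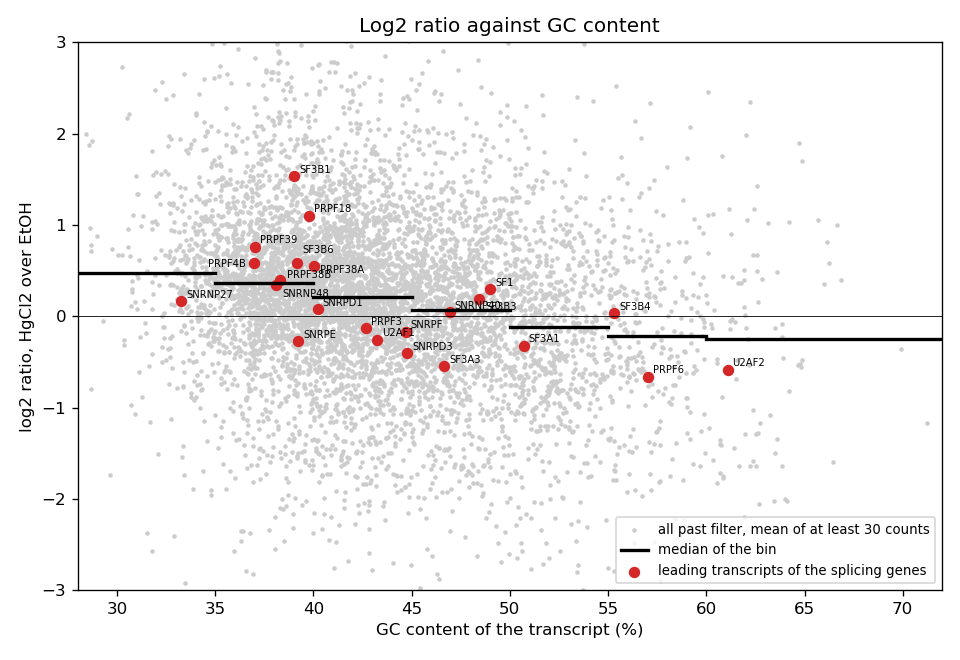
Log2 ratio of HgCl2 over EtOH (vertical axis) against the GC content of the transcript (horizontal axis, percent). Grey points are all transcripts past the filter with a mean of at least 30 counts, black bars the medians of 5-point bins, and red points 23 of the leading transcripts. Members fall from upper left to lower right, as the bin medians do, and 76 grey points lie outside the drawn range.

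With the bin median taken off each transcript, the leading transcripts had a median of −0.021 and ranged from −0.63 to 1.17, with 19 of 24 within 0.5 of 0. SF3B1 kept 1.17 and PRPF18 0.74, which is no longer 2-fold. SNRPE was the lowest at −0.63 on this scale. SF3A3 was at −0.62, SNRPD3 at −0.62 and PRPF6 at −0.44, while PRPF4B was at 0.22 and SF3B6 at 0.23. SNRNP48 was at −0.016. Here too the values rest on 1 sample a group, and the part of GC content in the differences was not tested.

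Depth differed along the same property in its medians. Summed over transcripts, 24 of the 44 genes had a mean of at least 30 counts over the 4 columns and 20 had fewer, with PRPF31 and SNRPN at 0. The median GC content of the coding transcripts was 54.8% for the 20 genes and 44.8% for the 24. Their ranges, 37.0% to 63.6% and 37.0% to 60.8%, overlap almost fully. Over the series, of protein-coding genes with 1 listed transcript, 28.6% of 238 under 40% GC had at least 10 counts, against 5.71% of 368 over 60% GC. Some coding transcripts with 0 bases of their own, such as SF3B2 ENST00000322535, also had 0 counts. Low counts of SF3A2, SF3B5, PRPF31, SNRPA, SNRPB and the like are values of these tables and are not read as the level of the gene. The part of GC content or of shared bases in them was not tested.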

How the data were processed

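The authors extracted RNA, made libraries with a TruSeq RNA v2 kit and read them as pairs. Trimming was done with Trim Galore 0.6.5 and alignment to GRCh38 with STAR 2.5.4b. Reads were assigned to Ensembl 98 transcripts with Rsubread 2.0.1 with options that are not given in the sources used here. The authors deposited these counts per transcript without normalization, and FPKM values that DESeq2 1.26.0 made from them. Symbols, classes, coordinates and sequences came from GENCODE 44 on GRCh38, a later release, in which 98.3% of 227368 identifiers were found. Reads of overlapping or near-identical transcripts cannot be told apart.

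From the counts, TMM factors of edgeR 4.0.16 (R 4.3.3) over the 17547 transcripts past the filter gave the log2 ratios, with Clopper-Pearson intervals of scipy 1.17.1. The planned edgeR test was not used across conditions, since each group is 1 sample. The scripts were tested on simulated data. DESeq2 1.42.0, other filters and scalings, a replicate block, FPKM with pseudocounts, and each column left out were tried as alternatives. Adjustment for GC content, a minimum of 150 own bases and the GC relation over transcripts with 30 counts in both groups were added after seeing the data. Named by value were leading transcripts, and other called ones, that reached a mean of 30 counts in a group; further called transcripts were named after their values were seen. Members and lists were chosen with earlier results of these data known. A few genes of the lists are not reported here.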

Additional observations from a re-analysis of the deposited data

How the results depend on the processing

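Of 319 values of the 29 named transcripts over the alternatives, 287 stayed within the counting interval, 32 moved beyond it and 0 turned a called direction. That 0 could count called transcripts only. A change of scaling shifts all log2 ratios alike, by less than a call requires, so it was largely fixed in advance. Among uncalled leading transcripts, those of PRPF3, SF3B3, SF3B4, SNRNP27, SNRNP40, SNRPD1 and SNRPF changed sign among the scalings. The 10 calls higher, 8 lower and 3 each way among retained introns changed most with the count demanded: with 10 or more counts required per column they were 2, 3, 1 and 1, and with a mean of at least 30 counts 2, 0, 1 and 0. Retained introns called lower were 5 with no filter and 5 at 2-fold with no demand on the interval. With the columns entered as replicates in edgeR, 13 members and 5 retained introns were called lower, and with the replicate block 16 and 6. The labels do not say that a replicate number marks a shared culture. Shares of all transcripts are given for the main setting only. The counts of members called under the alternatives have no such share beside them and are not compared with the series. Leaving out 1 column gave 7 to 13 members called lower, 2 to 5 retained introns called lower, member medians from −0.275 to −0.076 and leading medians from −0.205 to 0.016, with the highest counts lower without EtOH replicate 2. The medians of −0.16 for members and −0.13 for all leading transcripts past the filter depended on the scale. They were 0.014 and 0.047 on the deposited FPKM scale, 0.010 and 0.038 on log2(FPKM + 1), 0.012 and 0.041 on log2(FPKM + 0.1), −0.32 and −0.20 adjusted for GC content, and −0.10 and 0.048 over transcripts with at least 150 own bases. For leading transcripts the median was −0.011 with that demand of 10 counts and −0.27 for counts summed per gene. The cause of these shifts was not tested. Depth limits the calls: at 3 counts or fewer in a group a fold is a bound, and for the 20 genes under a mean of 30 counts only large differences could pass.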

Other observations

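Processed pseudogenes of the member genes held counts of their own, which were left out of the results. Of the transcripts of the 66 pseudogenes, 15 had a count, with a total of 950 in EtOH and 1090.5 in HgCl2. SNRPEP4, at chr19:5576660-5576938, rose from a mean of 286 to 551.5 counts (log2 ratio 1.09, interval 0.88 to 1.30), and SNRPEP2, at chr9:6748703-6748981, from 70.5 to 145.5 (1.19, 0.77 to 1.62). Their parent gene SNRPE had 87.5 and 62 counts. SNRPA1P1 fell from 50.5 to 11.5 counts (−1.99, −3.06 to −1.05), whereas its parent SNRPA1 had 7 and 3.5. The SNRPG copies SNRPGP10, SNRPGP2 and SNRPGP15 had 199.5, 166.5 and 138.5 counts in EtOH and 148, 84 and 118 in HgCl2, all more than SNRPG itself, with 36.5 and 18. Pseudogene and parent share most of their sequence, so how the reads were divided between them is uncertain, and this was not tested.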
